A study of Mus musculus with 11 samples.

Results

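Fatty acid oxidation and ketone body metabolism were examined here through 47 genes, chosen by name for their part in these pathways and read from the spots that the array's annotation assigns to each symbol. Of the 47 genes 38 had a spot, 27 of these held a value on at least 1 of the 10 arrays used, and 9 could be tested. The livers came from C57BL/6J mice in 3 groups, as the labels give them. Fasted mice were kept on a high-fat diet (42.16% fat) for 10 weeks and had no food for the final 48 h (3 arrays). High-fat mice received the same diet for the same time and were fed to the end (4 arrays, of which 3 were used), and control mice received chow (6.5% fat) for 10 weeks (4 arrays). The diets also differed in carbohydrate, at 42.81% in the high-fat diet against 49% in chow, and in protein, at 15.02% against 23%. Whole liver was extracted, 1 mouse per array. The study groups held 4 fasted, 5 high-fat and 9 control mice, and neither age nor sex is given in the labels. There was no fasted group on chow, so an effect of fasting can be read only on top of the high-fat diet. Liver RNA was set on each array against the same universal mouse reference RNA, and levels below are log2 ratios (liver over reference) after each array's median was set to 0. Such ratios compare groups for 1 gene and not 1 gene with another.

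In the liver, long-chain fatty acids are activated to acyl-CoA, carried into mitochondria by the carnitine shuttle and shortened by beta-oxidation, and very long and branched chains are first handled in peroxisomes. The acetyl-CoA formed can be turned into ketone bodies, which the liver exports as fuel during fasting and cannot itself burn. The nuclear receptor PPAR alpha, which fatty acids bind, is the best known activator of these genes in mouse liver, and many of its targets are known to be induced by fasting.

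Of the 9 tested genes 1 changed, in the comparison of fasted with control livers, in which 3.2% of all 3558 tested genes were called. Phyh, the peroxisomal enzyme that starts the alpha-oxidation of branched phytanic acid, was 2.44-fold lower in fasted livers than in control livers. The adjusted p was 0.0422 (limma's moderated test), and the call was lost in 13 of 21 alternative settings. Phyh was also 2.04-fold lower in fed high-fat livers than in control livers (adjusted p = 0.0683). Fasted livers were 1.2-fold below high-fat livers (adjusted p = 0.742), and the sign of this difference turned in 2 of 21 settings. No tested gene passed between high-fat and control livers, where 4.92% of all genes did, or between fasted and high-fat livers, where 0.365% did. Several central genes of the pathway held too few values to be tested. Among them are Cpt1a, which controls the entry of fatty acids into mitochondria, Ppara itself, Pdk4, a kinase that shuts off pyruvate oxidation, the hormone Fgf21 and the lipase inhibitor Angptl4.

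The 9 genes without a spot were Acsl1, Acad11, Hadha, Acaa1b, Acot2, Acot3, Acot4, Acat1 and Ucp2. A spot without a value on any of the 10 arrays was found for 11 genes, namely Fabp1, Crat, Acadl, Etfa, Acot12, Bdh2, Oxct1, Fgf21, Angptl4, Pdk4 and Ucp3. Fabp1 encodes the liver fatty acid binding protein, an abundant protein of hepatocytes, so an empty cell cannot be read as absent RNA. A further 18 genes had values on too few arrays, and 5 genes (Decr1, Acaa1a, Phyh, Acot8 and Creb3l3) had a value on all 10. The rule that left cells empty is not given in the sources used here. Each gene was read from 1 spot.

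**Figure D1:**
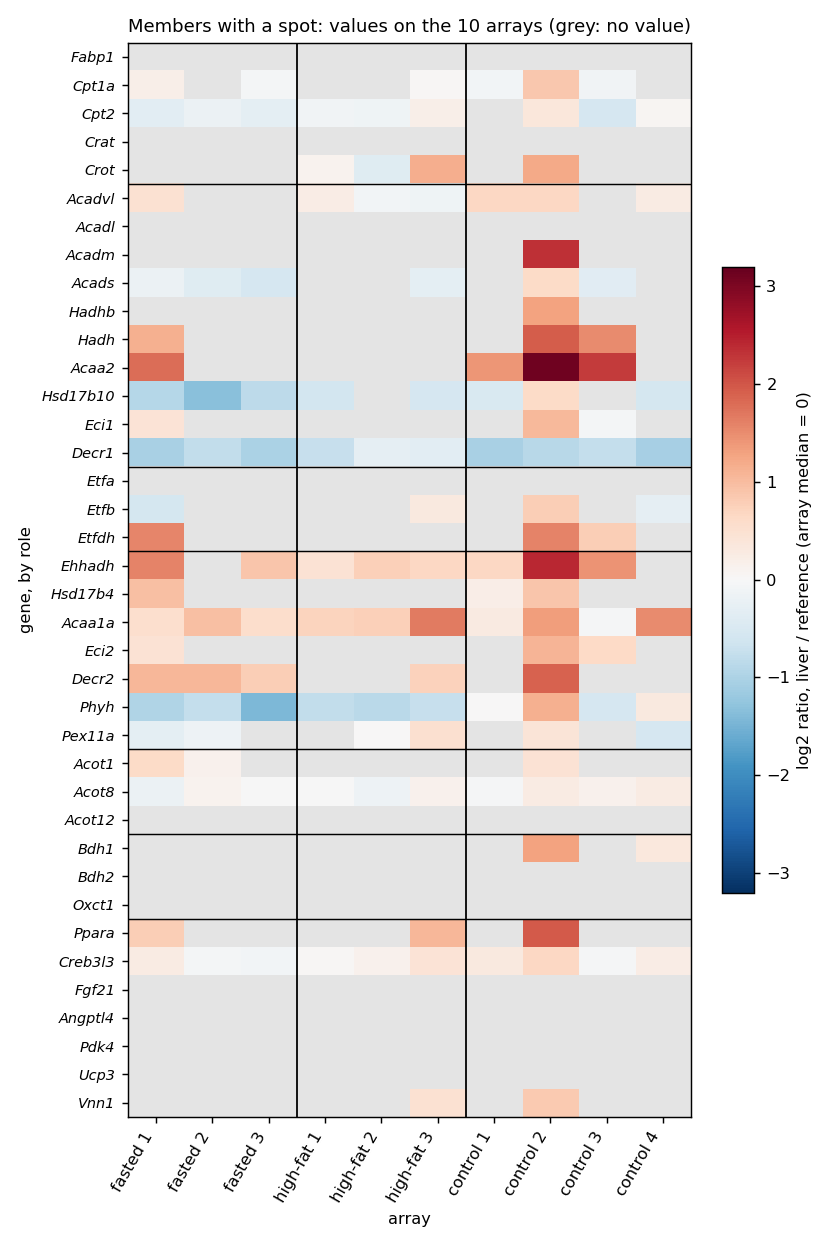
Log2 ratio of liver over reference for the 38 genes with a spot (rows, by role, separated by lines) on the 3 fasted, 3 high-fat and 4 control arrays (columns), with the array median at 0 and grey for no value. All 27 genes with a value have one on control array 2, and 11 rows are grey throughout.

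The arrays differed in how much of the pathway they measured. Between 11 and 22 of the 38 spots were filled on fasted arrays, 10 to 17 on high-fat arrays and 11 to 27 on control arrays, while over all 17280 spots 23.2% to 29.9% were filled on fasted arrays, 24.8% to 29.2% on high-fat arrays and 22.4% to 32.2% on control arrays. Control array 2 stood apart. It held a value for 27 of the 27 genes with any value, and of the 25 genes with values on at least 2 arrays 18 were highest there. It also had the largest share of all spots filled (32.2%) and the widest spread of ratios (0.52) of the 10 arrays. How many of all genes were highest on it was not computed, so this cannot be read as particular to the pathway. High-fat array 4 was left out, since it had a correlation between -0.03 and 0.01 with the others. The ratios also spread less on high-fat arrays, with a median absolute deviation of 0.26 to 0.39, against 0.44 to 0.49 on fasted and 0.43 to 0.52 on control arrays.

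Of 19 hepatocyte markers 13 could be tested. Their median per array was 1.37 to 1.51 on fasted arrays, 1.26 to 1.80 on high-fat arrays and 1.95 to 3.01 on control arrays. The ratios were read as liver over reference because hepatocyte genes are high, so these levels are no separate check of liver identity. Of the 13 markers 3 fell between fasted and control livers, where 1.04% of all genes fell. They were the cytochromes P450 Cyp3a11 (-1.87, adjusted p = 0.0336) and Cyp2c29 (-1.54, 0.0346) and the thyroxine carrier Ttr (-1.38, 0.0216). Between high-fat and control livers 3 fell, Cyp3a11 (-1.98, 0.0253), Cyp2c29 (-1.72, 0.0147) and the apolipoprotein Apoa1 (-1.0, 0.048), where 1.97% of all genes fell. Between fasted and high-fat livers 0 passed, where 0.365% of all genes did. Of 62 markers of other cell types 11 could be tested, and no pancreas or red cell marker had a value. Among them Kdr, an endothelial receptor, rose between fasted and control livers, where 2.16% of all genes rose, and none fell in any comparison. In whole liver, fewer cells of a type and less RNA per cell cannot be told apart.

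Phyh and Hsd17b10 are the tested genes whose fasted values all lay below all control values, and the 250 bases before their starts are shown to let a reader see what kind of promoter each has. They are RefSeq sequences of GRCm38.p6, read 5′ to 3′ on the strand of the gene, Phyh from chr2:4918746-4918995 (plus strand) and Hsd17b10 from chrX:152001646-152001895 (plus strand). Capitals mark a GC box (GGGCGG) or a CCAAT box (CCAAT) on either strand.
Phyh: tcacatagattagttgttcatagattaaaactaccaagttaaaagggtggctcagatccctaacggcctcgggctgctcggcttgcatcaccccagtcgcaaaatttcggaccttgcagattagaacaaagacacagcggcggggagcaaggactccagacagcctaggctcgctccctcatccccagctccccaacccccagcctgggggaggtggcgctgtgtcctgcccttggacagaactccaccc
Hsd17b10: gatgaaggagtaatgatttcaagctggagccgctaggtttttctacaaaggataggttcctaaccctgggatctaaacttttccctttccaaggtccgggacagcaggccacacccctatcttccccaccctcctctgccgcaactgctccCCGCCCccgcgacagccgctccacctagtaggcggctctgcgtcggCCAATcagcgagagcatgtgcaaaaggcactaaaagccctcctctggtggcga
The Hsd17b10 sequence held 1 GC box 99 bases and 1 CCAAT box 53 bases before the start, and the Phyh sequence held neither. Among all 32851 promoter windows of the same length, 32.7% had a GC box and 33.8% a CCAAT box. The element that PPAR alpha binds with its partner RXR was searched in its strict form, a pair of AGGTCA sites separated by 1 base, on both strands. It was found in 0 of the 8 tested genes with a promoter sequence, and in 0.0335% of all windows. A single AGGTCA was present for Creb3l3 alone, against 14% of all windows. These are descriptions of the letters in a short window.

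Of the carnitine shuttle, Cpt2 could be tested. It is the inner-membrane enzyme that turns acyl-carnitines back into acyl-CoA. Cpt2 had ratios of -0.33, -0.18 and -0.32 in fasted livers, -0.12, -0.15 and 0.19 in high-fat livers and 0.36, -0.55 and 0.07 in control livers (arrays 2 to 4). The fasted values lay below all high-fat values and within the range of control. Neither the change between fasted and high-fat livers, at -0.25 ± 0.21 (SE, adjusted p = 0.593), nor that between high-fat and control livers, at 0.01 ± 0.21 (adjusted p = 0.976), passed. Its partner of the outer membrane, Cpt1a, had 0.19 and -0.06 in fasted livers, 0.03 in the 1 high-fat liver with a value, and -0.09, 0.87 and -0.12 in control livers. Apart from control array 2, all 5 values of Cpt1a lay within -0.12 to 0.19. Crot, which makes medium-chain acyl-carnitines in peroxisomes, had 0.11, -0.40 and 1.16 in high-fat livers, 1.20 on control array 2 and no value in fasted livers.

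Decr1 is the mitochondrial 2,4-dienoyl-CoA reductase needed to degrade polyunsaturated fatty acids, and its ratios were highest in the fed high-fat livers. Decr1 had -1.04, -0.79 and -1.01 in fasted livers, -0.74, -0.29 and -0.33 in high-fat livers and -1.05, -0.90, -0.77 and -1.06 in control livers. All high-fat values lay above all fasted and all control values, the closest being high-fat array 1 at -0.74 and control array 3 at -0.77. The difference between high-fat and control livers was 0.49 ± 0.14 (SE, 95% interval 0.18 to 0.81, adjusted p = 0.0675), and that between fasted and high-fat livers was -0.49 ± 0.15 (-0.83 to -0.16, adjusted p = 0.175). The same high-fat arrays enter both, once on each side. Neither passed, and without high-fat array 1 the first was 0.64 with an adjusted p of 0.0406. Both shrank when the arrays were scaled, to 0.23 (adjusted p = 0.59) for the first and -0.22 (0.811) for the second. Quantile normalisation gave 0.32 (0.331) and -0.26 (0.708). How much of the Decr1 difference goes with the narrower spread of the high-fat arrays was not tested. Fasted and control livers had the same mean, -0.95 ± 0.14 (SD, n = 3) and -0.95 ± 0.14 (n = 4), with an interval of the difference from -0.32 to 0.31.

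Hsd17b10, a mitochondrial 3-hydroxyacyl-CoA dehydrogenase that also serves in the mitochondrial ribonuclease P, had -0.91, -1.35 and -0.83 in fasted livers, -0.58 and -0.55 in high-fat livers (arrays 1 and 3) and -0.50, 0.60 and -0.56 in control livers (arrays 1, 2 and 4). The fasted values were below all others, and control array 2 was far above the other control arrays. The change between fasted and control livers was -0.88 ± 0.29 (SE, 95% interval -1.51 to -0.24), with an unadjusted p of 0.012 that did not pass after adjustment (adjusted p = 0.127). Without control array 2 it was -0.50 (adjusted p = 0.169).

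The acyl-CoA dehydrogenases, which take the first step of each round of beta-oxidation, were measured in part. Acadvl, for very long chains, had 0.49 in 1 fasted liver, 0.24, -0.09 and -0.14 in high-fat livers and 0.66, 0.65 and 0.25 in control livers. Every high-fat value lay below every control value of Acadvl, the closest pair being 0.24 and 0.25. With genes admitted at 1 value per group, the change was -0.52 ± 0.17 (SE, adjusted p = 0.14). Acads, for short chains, had -0.20, -0.38 and -0.55 in fasted livers, -0.32 in 1 high-fat liver and 0.60 and -0.36 in control livers. Acadm, for medium chains, held a value of 2.34 on control array 2 alone.

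For the later steps the values came mostly from fasted array 1 and control arrays 2 and 3. Acaa2, the thiolase that ends each round in mitochondria, had 1.78 in 1 fasted liver and 1.42, 3.12 and 2.23 in control livers. Hadh, the hydroxyacyl-CoA dehydrogenase, had 1.13 in 1 fasted liver, against 1.94 and 1.51 in control livers. Neither had a value in a high-fat liver used here. Eci1, an isomerase for unsaturated chains, had 0.43 in 1 fasted liver, and 1.04 and -0.06 in control livers. Hadhb, the thiolase subunit of the trifunctional protein, had 1.28 on control array 2 alone. The electron carriers that drain the dehydrogenases were as sparse, with Etfdh at 1.55 in 1 fasted liver and 1.59 and 0.79 in control livers. Etfb had -0.57 in 1 fasted liver, 0.32 in 1 high-fat liver, and 0.78 and -0.29 in control livers.

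Among peroxisomal genes Phyh gave the clearest difference. Its ratios were -0.96, -0.77 and -1.43 in fasted livers, -0.78, -0.87 and -0.73 in high-fat livers and 0.01, 1.13, -0.53 and 0.32 in control livers. Every liver of the mice given the high-fat diet, fasted or not, lay below every control liver, and the closest pair was high-fat array 3 and control array 3. The means were -1.05 ± 0.34 (SD, n = 3) in fasted, -0.79 ± 0.07 (n = 3) in high-fat and 0.23 ± 0.69 (n = 4) in control livers. Phyh fell between fasted and control livers, with a log2 change of -1.29 ± 0.30 (SE, 95% interval -1.95 to -0.62, adjusted p = 0.0422). Between high-fat and control livers it had -1.03 ± 0.30 (2.04-fold lower), with an adjusted p of 0.0683 that did not pass. Fasted and high-fat livers differed by -0.26 ± 0.33, with an interval of -0.97 to 0.45.

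The adjusted p of Phyh was close to the threshold. With single arrays left out, it passed only without control array 2 (change -0.99, adjusted p = 0.0356) or control array 3 (-1.54, adjusted p = 0.0317). It was lost without control array 1 (adjusted p = 0.0653), control array 4 (0.0664), any 1 fasted array (0.0959 to 0.135) or any 1 high-fat array (0.0506 to 0.0552), with the number of genes tested also changing. It was lost as well with high-fat array 4 included (adjusted p = 0.0801) and with the mouse number as a block (0.0535). The change stayed between -1.54 and -0.99 in all of the 21 settings. The tested hepatocyte markers were also lower, 13 of 13 in both comparisons. Their median change was -0.61 between fasted and control livers, and -0.60 between high-fat and control livers. Of all genes 47.9% and 39.6% were below 0 in the same order, with medians of 0.02 and 0.08. Of the 13 markers 3 passed in each of these comparisons. Their part in the fall of Phyh was not tested.

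Ehhadh, the peroxisomal bifunctional enzyme of beta-oxidation and a classical PPAR alpha target, had 1.59 and 0.89 in fasted livers (arrays 1 and 3), 0.45, 0.76 and 0.65 in high-fat livers and 0.65, 2.41 and 1.43 in control livers (arrays 1 to 3). Fasted livers were above all high-fat livers, and high-fat livers overlapped with control at the lower end. The change between high-fat and control livers was -0.88 ± 0.37 (SE, unadjusted p = 0.04, adjusted p = 0.175), and -0.42 without control array 2. It was -0.50 (adjusted p = 0.41) with arrays scaled to a common spread and -0.31 (0.56) with quantile normalisation. Between fasted and high-fat livers Ehhadh had 0.62 ± 0.42 (adjusted p = 0.502), the only positive change among the 9 genes in that comparison. Between fasted and control livers it was -0.26 ± 0.42.

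Acaa1a, the peroxisomal thiolase, had 0.54, 0.95 and 0.56 in fasted livers, 0.70, 0.77 and 1.66 in high-fat livers and 0.29, 1.33, -0.04 and 1.52 in control livers. All groups overlapped, with changes of 0.27 or less in size except -0.36 ± 0.38 between fasted and high-fat livers (adjusted p = 0.685). Acaa1b is a close relative with no spot of its own, and the spot may read both. Pex11a, which drives peroxisome division, had -0.31 and -0.17 in fasted livers, 0.02 and 0.51 in high-fat livers and 0.40 and -0.54 in control livers. Its fasted values were below its high-fat values, by 0.51 ± 0.31 (SE, adjusted p = 0.473). Decr2, the peroxisomal dienoyl-CoA reductase, had 1.07, 1.07 and 0.79 in fasted livers, 0.74 in 1 high-fat liver and 1.90 in 1 control liver. That control liver was control array 2. Hsd17b4, the bifunctional enzyme for branched chains, had 0.97 in 1 fasted liver and 0.20 and 0.88 in control livers. Eci2, a peroxisomal isomerase, had 0.45 in 1 fasted liver and 1.08 and 0.63 in control livers.

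The thioesterase Acot8, which frees fatty acids from CoA in peroxisomes, was measured on all 10 arrays. Acot8 had -0.18, 0.10 and -0.01 in fasted livers, -0.02, -0.17 and 0.13 in high-fat livers and -0.03, 0.25, 0.14 and 0.26 in control livers. The intervals of its changes ran from -0.46 to 0.11 between high-fat and control livers, from -0.31 to 0.29 between fasted and high-fat livers, and from -0.47 to 0.10 between fasted and control livers, so a change of 1 log2 unit lies outside each. Acot1, a cytosolic thioesterase known to be induced in fasted liver, had 0.62 and 0.13 in fasted livers, 0.45 on control array 2 and no value in high-fat livers. Its spot may also read the close relative Acot2, which has none.

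Ketone body metabolism was almost unmeasured. Of its 4 genes, Bdh1, the dehydrogenase that forms beta-hydroxybutyrate, had 1.29 and 0.34 in control livers (arrays 2 and 4) and no value in fasted or high-fat livers used here. Oxct1, which extrahepatic tissues use to burn ketone bodies, and Bdh2 held none, and Acat1 had no spot. A further spot, whose symbol is listed as another name of Oxct1, was not read.

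Of the regulators, Creb3l3, a membrane-bound transcription factor of hepatocytes that works with PPAR alpha, could be tested. Creb3l3 had 0.26, -0.06 and -0.08 in fasted livers, 0.04, 0.13 and 0.43 in high-fat livers and 0.31, 0.65, -0.05 and 0.23 in control livers. The groups overlapped, with changes of -0.16 ± 0.19 (SE) for fasted against high-fat, -0.24 ± 0.17 for fasted against control and -0.08 ± 0.17 for high-fat against control livers, and adjusted p of 0.46 or more. Ppara had 0.78 in 1 fasted liver, 1.05 in 1 high-fat liver and 1.97 on control array 2. Vnn1, a pantetheinase and PPAR alpha target, had 0.49 in 1 high-fat liver and 0.85 on control array 2.

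**Figure D2:**
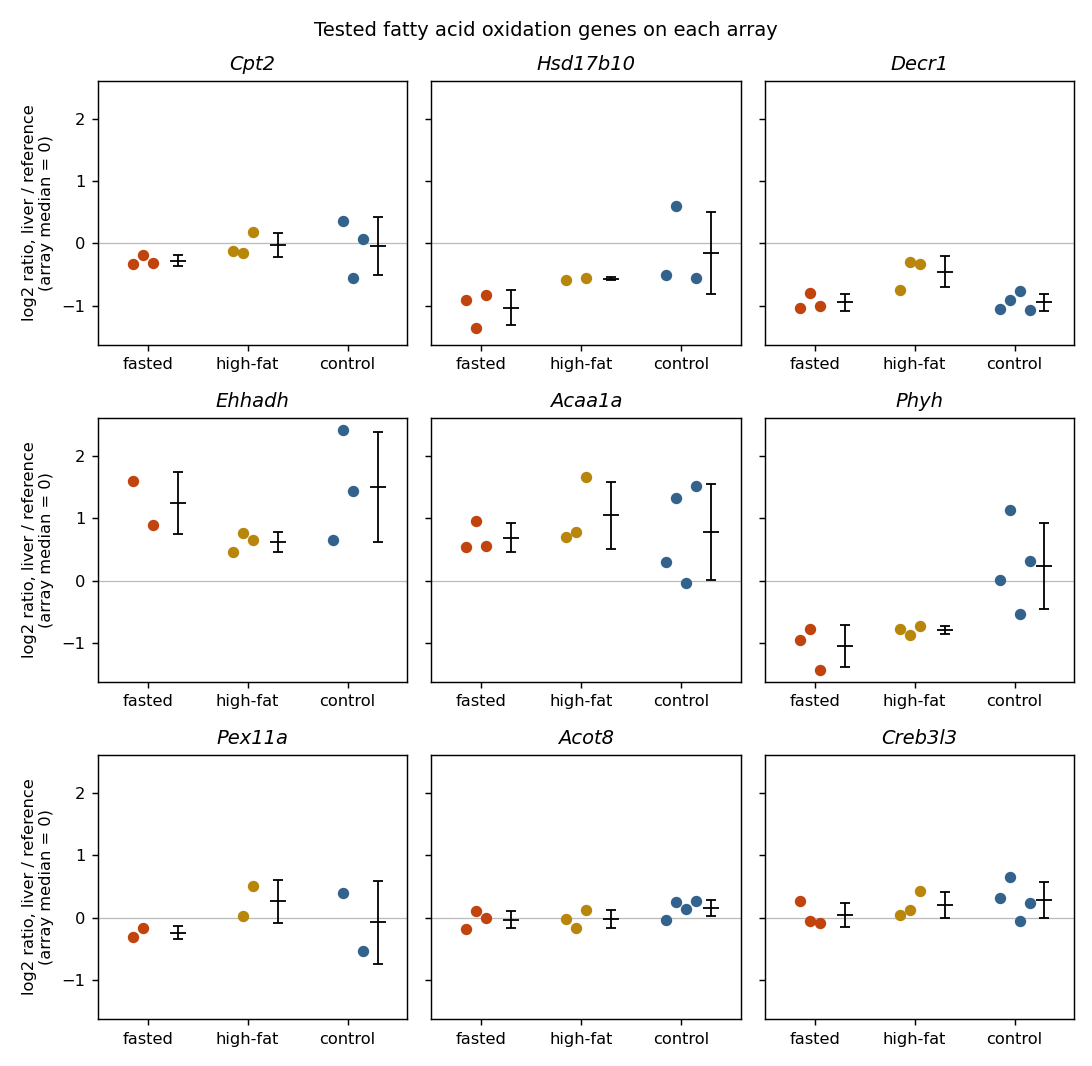
Log2 ratio of liver over reference (array median at 0) for the 9 tested genes in fasted, high-fat and control livers, with 1 point per array and a black bar for the mean ± SD. The 6 fasted and high-fat points of Phyh lie below its 4 control points, and the high-fat points of Decr1 lie above those of both other groups.

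Set side by side, the comparisons were as follows, by limma's moderated test on 3558 genes with Benjamini-Hochberg adjustment. Between high-fat and control livers 0 of the 9 genes rose and 0 fell, where 2.95% of all genes rose and 1.97% fell. Phyh, Decr1 and Ehhadh, 3 of the 9, passed 0.05 before adjustment, as did 25.2% of all genes. The median change of all 9 was -0.08, against 0.08 for all genes, with 5 of 9 below 0, as were 39.6% of all genes. A single array could turn or enlarge that median, which was 0.03 without high-fat array 1, 0.00 without control array 2, and -0.20 without control array 3 or high-fat array 3. The groups did not overlap for 2 of 9 genes, where this held for 25.4% of all genes. Phyh lay below, as did 8.77% of all genes, and Decr1 above, as did 16.7%. Groups that did not overlap were thus common on these arrays.

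Between fasted and high-fat livers 0 of the 9 rose and 0 fell, where 0.0843% of all genes rose and 0.281% fell, and Decr1 alone had an unadjusted p under 0.05, where 14.6% of all genes had. Changes ran from -0.51 (Pex11a) to 0.62 (Ehhadh), and 8 of 9 were below 0 (6 of 9 with values as deposited, with scaled arrays or with quantile normalisation), as were 56.5% of all genes. The median was -0.26, against -0.05 for all genes. Without high-fat array 3 it was -0.05, against -0.04 for all genes, with 5 of 7 below 0, and with values as deposited -0.06, against 0.16. The groups did not overlap for 5 of 9 genes, where this held for 28.8% of all genes. Fasted livers were lower for Cpt2, Hsd17b10, Decr1 and Pex11a, as for 17.8% of all genes, and higher for Ehhadh, as for 11.1%, and none of these differences passed. Groups with fewer values separate more easily. Pex11a had 2 values in each group, Hsd17b10 had 2 in high-fat livers and Ehhadh 2 in fasted livers. Of all 3558 genes 2262 had a value on all 10 arrays, so the shares are not like for like.

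Between fasted and control livers 1 of the 9 was called, Phyh, where 1.04% of all genes fell and 2.16% rose. An unadjusted p under 0.05 was found for Phyh and Hsd17b10, the same 2 genes whose groups did not overlap, where 20.4% of all genes had such a p and 22.2% did not overlap, 9.58% with fasted livers below and 12.6% with them above. All 9 changes were below 0, from -1.29 for Phyh to -0.00 for Decr1, with a median of -0.24, against 0.02 for all genes, of which 47.9% were below 0. Without control array 2 the median was -0.08 and 5 of 8 were below 0. With values as deposited and with quantile normalisation 6 of 9 were below 0, with scaled arrays 8 of 9 and with the replicate block 7 of 9, and the median with values as deposited was -0.02.

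**Figure D3:**
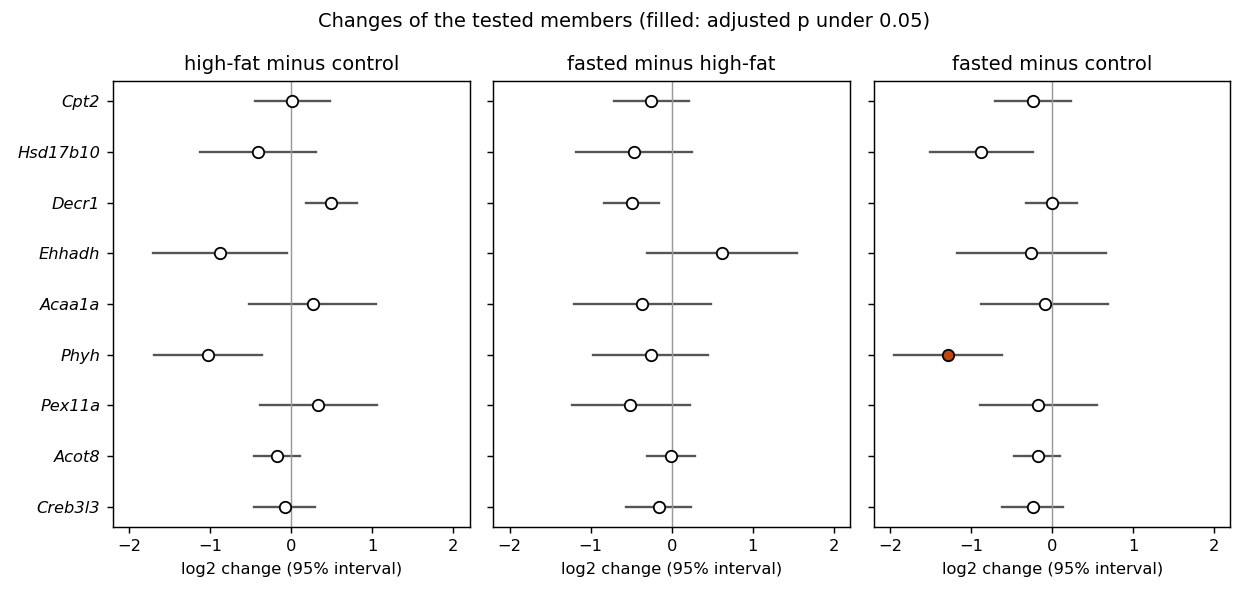
Log2 change of the 9 tested genes with its 95% interval in the 3 comparisons, with a filled point for an adjusted p under 0.05. Only Phyh between fasted and control livers is filled, and most intervals cross 0.

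A further list of 85 genes of the pathway, from fatty acid uptake to peroxisome assembly, had 73 with a spot and 21 tested. None of the 21 was called in any comparison. At an unadjusted p under 0.05 there were 5 of 21 between high-fat and control livers, 1 between fasted and high-fat livers and 4 between fasted and control livers, beside 25.2%, 14.6% and 20.4% of all genes in the same order. Hsdl2, a peroxisomal protein with a sterol carrier domain, came closest, with a mean of 1.24 in fasted livers, 0.60 in high-fat livers and 0.57 in control livers. Its change was 0.67 between fasted and control livers (adjusted p = 0.0508) and 0.64 between fasted and high-fat livers (adjusted p = 0.145), and fasted values lay above all others. Pnpla2, the lipase that opens triglyceride stores, had -0.46 between high-fat and control livers (adjusted p = 0.0671). Slc27a5, the bile acid and very long-chain acyl-CoA ligase, had -1.17 (adjusted p = 0.0817) in the same comparison, with groups that overlapped. Pdk2, a pyruvate dehydrogenase kinase, had -1.07 between fasted and control livers (adjusted p = 0.0772). It had only 2 values in each group, with an SD of 0.58 in control livers. The median of the 21 was -0.04 for high-fat against control, 0.07 for fasted against high-fat and -0.13 for fasted against control livers.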

How the data were processed

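Per the labels, Cy5 marks liver RNA and Cy3 the reference. The authors deposited log ratios, read as liver over reference, since hepatocyte genes are high, and taken as log2. No source used here gives the base, the scanner, the background correction, the normalisation or the rule for empty cells. Another base would scale every change by 1 constant. Signal over background is not known, and precision is limited by how many arrays there were.

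Of 17280 spots 14718 carry 1 symbol, 1 several and 2561 none, per the platform annotation. The gene identifiers of 14445 spots matched the RefSeq table and 0 symbols changed. The spots are tied to no genome build.

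Arrays were centred on their median, spots of 1 symbol averaged, and genes kept with values on at least 2 arrays of each group. This gave 3558 genes, 3169 with a symbol. Limma 3.58.1 in R 4.3.3 fitted 1 mean per group on 10 arrays with empirical Bayes (4.96 prior degrees of freedom and 7 residual ones for a full row), two-sided, with Benjamini-Hochberg adjustment within a comparison and a threshold of 0.05. Arrays are separate mice per the titles. The fit was tested on simulated data.

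Every member is accounted for, and every testable one is given with its values, whatever its p. Of the other lists, called genes are named, and some uncalled pathway genes, which were chosen after their values were seen. Members and lists were chosen with earlier results of these data known, so none is independent evidence. High-fat array 4 was left out as the choice of genes specified, earlier results having shown that it did not correlate with the others. Alternatives were the use of all 11 arrays, other centring, scaling, quantile normalisation, other filters, single spots, a replicate block, 2 groups in the fit, a trended and robust fit, and leaving out each array.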

Additional observations from a re-analysis of the deposited data

How the results depend on the processing

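Of 525 recomputed changes of the 9 tested genes 474 kept their direction and side of the threshold, 13 lost and 5 gained a call, and 33 turned their sign, all in 11 changes of at most 0.33 in size, with 0 of the turned values past the threshold. The cause was not tested. Members called between high-fat and control livers numbered 1, which was Phyh, with values as deposited, with scaled arrays and with quantile normalisation (adjusted p of 0.0395, 0.0352 and 0.0233), and 0 to 1 with single arrays left out, the 1 being Phyh without control array 3 (0.037) or Decr1 without high-fat array 1. Between fasted and control livers they numbered 0 with all 11 arrays, with scaled arrays (adjusted p of Phyh 0.0812), with genes at 1 value per group (0.0657), with the replicate block (0.0535) and with 2 groups in the fit (0.0937), and 0 to 1 with single arrays left out. Between fasted and high-fat livers they were 0 in all 21 settings.

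Among all genes, 175 were called between high-fat and control livers (105 rose, 70 fell), against 86 with values as deposited (35 and 51), 25 with 2 groups in the fit and 22 to 190 with single arrays left out (22, 34 and 55 without high-fat 2, high-fat 3 and control 3, and 100 to 116 without high-fat 1, control 1, fasted 1 or fasted 2). The split was 55 and 82 when arrays were centred on spots filled on all 10, 101 and 24 when scaled and 137 and 22 with quantile normalisation. Between fasted and high-fat livers 13 were called (3 and 10), against 3 with all 11 arrays, 24 with quantile normalisation (3 and 21), 7 with a value on all 10 arrays, 3 with 1 value per group, 4 with the replicate block, 49 with 2 groups and 3 to 23 with single arrays left out (23 without control 2, 3 to 7 without any other). The split was 11 and 5 with values as deposited and 0 and 15 when scaled. Between fasted and control livers 114 were called (77 and 37), against 25 with all 11 arrays, 198 with values as deposited (180 and 18), 10 when scaled (8 and 2), 47 with 2 groups and 5 to 157 with single arrays left out (5, 7 and 54 without fasted 2, fasted 1 and control 1, and 70 to 74 without fasted 3, high-fat 3 or control 3). The split was 39 and 52 when centred on spots filled on all 10 and 69 and 11 with quantile normalisation. With values as deposited the median of all genes between fasted and control livers was 0.21.

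Signs turned as follows. Between high-fat and control livers Cpt2 had -0.07 when centred on spots filled on all 10, -0.02 when scaled, -0.01 with quantile normalisation and -0.24 to 0.21 with single arrays left out. Acaa1a had -0.04 to 0.52 and Creb3l3 -0.20 to 0.04 with single arrays left out, and Pex11a -0.38 with the replicate block. Between fasted and high-fat livers Phyh had 0.07 when scaled and 0.02 with quantile normalisation. Acot8 had 0.19 with values as deposited, 0.00 when scaled, 0.00 with quantile normalisation and -0.09 to 0.06 with single arrays left out, and Creb3l3 0.04 with values as deposited. Between fasted and control livers Decr1 had 0.18 with values as deposited, 0.01 when scaled, 0.05 with quantile normalisation and -0.08 to 0.06 with single arrays left out. Ehhadh had 0.14 with quantile normalisation, 0.01 with the replicate block and -0.68 to 0.20 with single arrays left out. Acaa1a had 0.09 with values as deposited, 0.01 with quantile normalisation, 0.16 with the replicate block and -0.36 to 0.16 with single arrays left out, and Pex11a 0.17 with values as deposited.

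The mouse numbers in the titles were not used to pair the groups in the main fit. Deviations from the group means correlated between arrays of the same number with r from -0.18 to 0.18 across genes (median 0.09). Between arrays of different numbers r ran from -0.23 to 0.25 (median -0.02). With so few arrays per group, these values cannot settle whether arrays of the same number share a batch. With the replicate block Phyh had -1.26 between fasted and control livers.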

Other observations

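High-fat array 4, which was not used in the comparisons, held a value for 12 of the 38 spots of the fatty acid oxidation genes. Of these, 4 had a value on no other array: Crat, which makes acetyl-carnitine, at 0.19, Acot12, a cytosolic acetyl-CoA thioesterase, at 0.19, Pdk4 at -0.10 and Ucp3, a mitochondrial carrier of muscle, at 0.20. Acaa2, at 1.42 or more on the 4 other arrays that measured it, stood at -0.26 there, and Hadh, at 1.13 or more on the other 3, at -0.15. Decr1, at -0.29 or less on the other 10 arrays, was at 0.09. Whether each value of this array stands beside its own gene is not known.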
